A study of Homo sapiens with 6 samples.

Results

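Interferon-inducible effector genes are the genes that cells switch on to hold back viruses once an interferon has bound its receptor. A set of 36 such genes was taken by name from the 54261 gene symbols of the count table, with the sensors of viral RNA left out, and all 36 were in the table. RNA was sequenced from PC9/GR, an established line of human lung cancer cells, in 3 libraries that received a control small interfering RNA (siRNA, a short duplex that triggers degradation of a matching transcript) and 3 that received an siRNA against the long non-coding RNA MYLK-AS1. No interferon or virus is named in the labels of any library, and the siRNA dose, the time of harvest and the number of clones or cultures behind the libraries are not given there.

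Type I and type III interferons signal through the kinases JAK1 and TYK2 to STAT2, which joins IRF9 in the complex ISGF3. ISGF3 binds the interferon-stimulated response element, a promoter motif built of repeated GAAA units, and turns on the effector genes. In tumour cell lines many of these genes have a basal level without added interferon, and their products degrade or sequester foreign RNA, restrain viral entry and release, or tag proteins with the ubiquitin-like ISG15.

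Libraries held 7551303 to 11055408 reads, and 3 reads in a library, the limit that 0 reads allow, correspond to 0.274 to 0.410 CPM (read counts scaled to a common library size). MYLK-AS1 itself had 20, 16 and 19 reads in the controls and 0, 5 and 4 in the knockdowns. Over all genes a chi-square comparison of counts, given per degree of freedom, set control replicate 3 apart from the other controls (9.43 and 9.86, against 2.38 between replicates 1 and 2) and knockdown replicate 3 apart from the other knockdowns (7.18 and 9.70, against 4.83). The epithelial keratins KRT7, KRT8 and KRT18 were high, with control means of 3993, 4159.8 and 4255 CPM, whereas the lung lineage factor NKX2-1 had at most 10 reads and the surfactant gene SFTPB had none. The epithelial marker EPCAM was low, with 15, 16 and 14 reads in the controls and 7, 5 and 4 in the knockdowns. Of the 8 tested epithelial markers, KRT19 rose, and 5 fell, namely KRT7, KRT8, KRT18, EPCAM and CDH1. The 10 epithelial markers summed to 11853 to 13877 CPM in the controls and 7626 to 8229.7 CPM in the knockdowns. Of 8 leukocyte markers, PTPRC, CD3E, NKG7 and HLA-DRA had 0 reads in all libraries, and the summed list ran from 201.3 to 282 CPM in the controls and from 281 to 323 CPM in the knockdowns. Its tested members went opposite ways, CD68 rising from 193 ± 40.5 to 285 ± 22.4 CPM and CD14 falling from 35.3 ± 6.40 to 21.6 ± 2.27 CPM (mean ± SD, n = 3 per group). The fibroblast and endothelial list summed to 21.9 to 28.6 CPM in the controls and 28.0 to 34.9 CPM in the knockdowns, with COL1A2 at 0 reads. In it LUM rose from 0.482 ± 0.233 to 3.45 ± 1.501 CPM, and COL1A1, the most abundant, was not called at 23.7 ± 3.59 to 26.1 ± 2.57 CPM (mean ± SD, n = 3 per group). The part of these lists in the results was not tested.

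Promoter sequences (RefSeq, GRCh38.p14, from 250 bases before to 50 after the start) were found for 31 of the 36 genes, and not for IFIT2, MX2, OAS2, OASL and USP18. The response element was searched on both strands as GAAANNGAAA, and at least 1 match lay in 19 of the 31 promoters (61.3%) against 996 of all 27305 promoters of the table (3.65%). A STAT site searched as TTCNNNGAA, whose letters can overlap those of the first motif, lay in 10 of 31 (32.3%) against 7.88% of all promoters. The single word GAAACTGAAA, chosen after the promoters had been seen, lay in 8 of the 31 (25.8%) and in 73 of all 27305 (0.267%). One window of 30 bases from each of the 8 is printed because genes that rose, genes that fell and genes that did not pass the test carried the same word, which stands in capitals. Windows run 5′ to 3′ on the strand that reads the word.
SAMD9: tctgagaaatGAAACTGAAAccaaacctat
IFIT5: cgagcgctcaGAAACTGAAActtaagaaat
IFI44: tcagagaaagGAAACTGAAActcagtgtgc
ISG20: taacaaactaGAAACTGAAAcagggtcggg
IFITM1: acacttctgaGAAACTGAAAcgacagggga
BST2: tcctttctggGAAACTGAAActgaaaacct
OAS3: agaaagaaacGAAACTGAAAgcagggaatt
DDX60: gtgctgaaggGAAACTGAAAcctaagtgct
The windows lie at chr7:93118096-93118125 (minus strand) for SAMD9, chr10:89414554-89414583 (minus strand) for IFIT5, chr1:78649761-78649790 (minus strand) for IFI44 and chr15:88638937-88638966 (plus strand) for ISG20, 4 genes that rose in the knockdown. They lie at chr11:314024-314053 (plus strand) for IFITM1 and chr19:17405741-17405770 (minus strand) for BST2, which fell. They lie at chr12:112938321-112938350 (plus strand) for OAS3 and chr4:168318821-168318850 (minus strand) for DDX60, which did not pass the test. In IFIT5 and IFI44 the word reads on the strand opposite the gene, and in BST2 a second copy overlaps the one shown. By outcome, GAAANNGAAA lay in 11 of 19 promoters of genes that rose, 2 of 3 of genes that fell, 5 of 6 of tested genes that were not called and 1 of 3 of genes too low to test. A match is a description of letters in these windows, not a site of binding.

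Most of the effector genes were higher in the libraries that received the siRNA against MYLK-AS1. Of the 36, 33 had enough reads to test, and 22 of those rose, 3 fell and 8 were not called by edgeR's quasi-likelihood test (threshold 0.05 on the p-value, Benjamini-Hochberg adjusted over all 15391 genes tested). Over all genes tested 21.3% rose and 20.7% fell. The median log2 fold change, knockdown against control, was 0.77 for the 33 genes and -0.00050 for all genes tested. A rise of at least 2-fold was called for 11 of the 33, against 4.2% of all genes tested. The 3 knockdown libraries all lay above the 3 controls for 18 of the 33 and all below them for 2, where each of these patterns held for 26.1% of all genes tested. RSAD2, CXCL10 and CXCL11 were too low to test. The labels do not say that the replicates came from separate cultures, so the p-values measure only the spread between these libraries, which may be technical. In bulk RNA a change in the number of cells that express a gene and a change in RNA per cell cannot be told apart. The labels do not give the number of siRNA sequences used and name no rescue. An effect of lower MYLK-AS1 and an effect of the siRNA duplex itself therefore cannot be told apart either, and neither was tested.

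**Figure D1:**
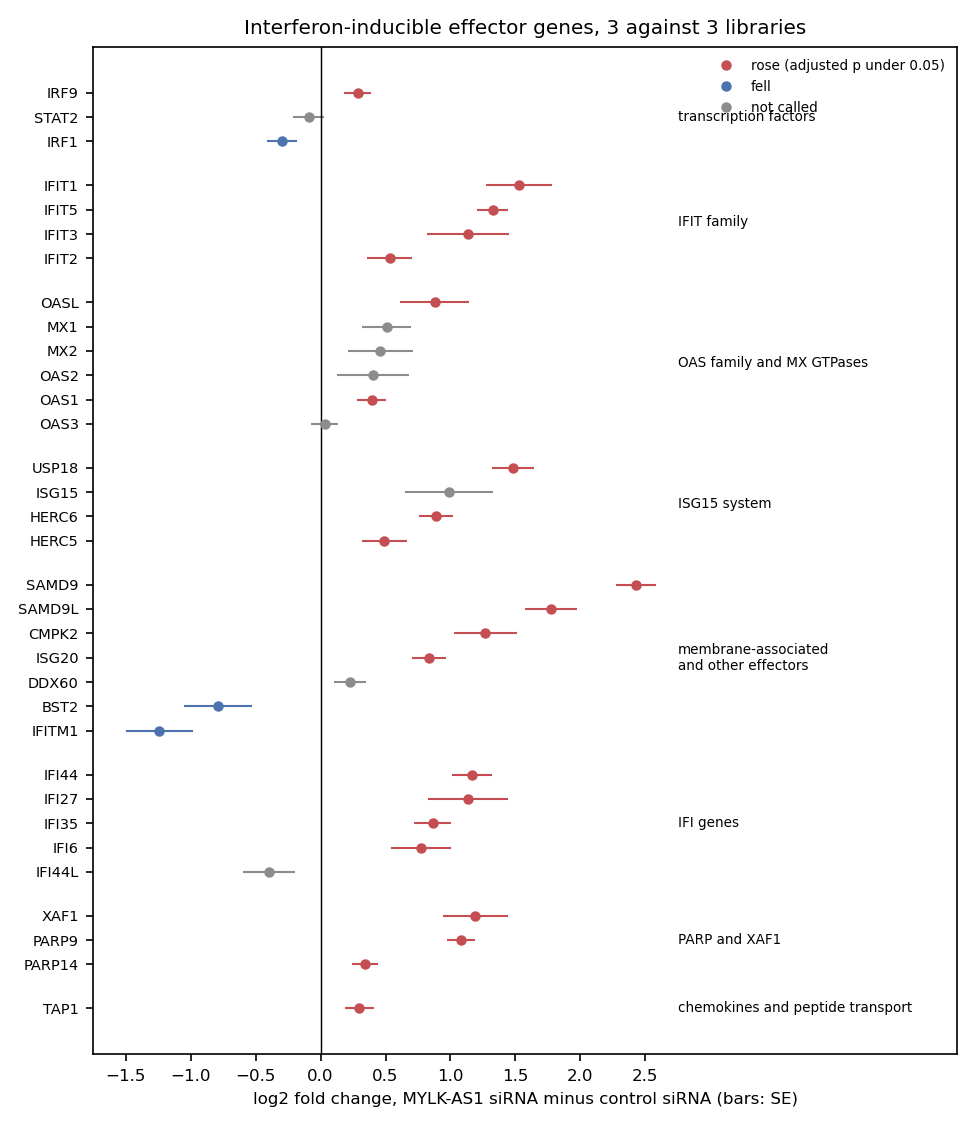
Log2 fold change of each of the 33 tested genes (x axis, knockdown minus control, bars are the SE of the fit over 3 against 3 libraries), grouped by role on the y axis and coloured by the call. IFITM1, BST2 and IRF1 lie on the negative side as called genes, and SAMD9 is farthest to the right at 2.43.

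Of the transcription factors of the response IRF9 rose and IRF1 fell, both by little, and STAT2 was not called. IRF9, the DNA-binding part of ISGF3, had 84.2, 89.8 and 103 CPM in the controls and 105, 110.0 and 123 CPM in the knockdowns, here and below in the order of replicates 1 to 3. All 3 knockdowns lay above all controls, and the gene rose (log2 fold change 0.28 with SE 0.10 and adjusted p = 0.0356). STAT2, its partner in ISGF3, had 66.4, 62.2 and 71.4 CPM in the controls and 54.9, 73.8 and 59.0 CPM in the knockdowns, with groups that overlapped (log2 fold change -0.09 with SE 0.12 and adjusted p = 0.568). IRF1, a factor best known for the response to interferon gamma, had 73.2, 60.9 and 72.8 CPM in the controls and 51.8, 62.4 and 54.5 CPM in the knockdowns. The second knockdown lay above the lowest control, and the gene fell (log2 fold change -0.29 with SE 0.11 and adjusted p = 0.0466). IRF9 missed the threshold without control replicate 1, control replicate 2, knockdown replicate 2 or knockdown replicate 3 (adjusted p from 0.0698 to 0.163). IRF1 missed it without control replicate 1, control replicate 3, knockdown replicate 1 or knockdown replicate 3 (adjusted p from 0.0999 to 0.165). Under GENCODE 29, 48.4% of the exon bases of IRF9 are shared with AL136295.5 on the same strand and 22.0% of those of IRF1 with C5orf56 on the opposite strand, so reads of these pairs may not be fully told apart.

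All 4 genes of the IFIT family, cytoplasmic proteins that bind viral RNA and block its translation, rose. IFIT1, which recognises RNA whose cap lacks a methyl group, had 101, 76.8 and 124 CPM in the controls and 209.9, 309.6 and 353 CPM in the knockdowns. The lowest knockdown was well above the highest control (log2 fold change 1.53 with SE 0.25 and adjusted p = 0.00427). IFIT5, which binds RNA carrying a 5′ phosphate, had 31.4, 29.8 and 28.6 CPM in the controls and 66.5, 76.7 and 81.9 CPM in the knockdowns. Its controls lay close together, its groups were far apart, and its p was the lowest of the 4 (log2 fold change 1.32 with SE 0.12 and edgeR adjusted p = 1.34e-07). IFIT3, which stabilises IFIT1, had 40.9, 36.9 and 61.8 CPM in the controls and 67.5, 114 and 127 CPM in the knockdowns. Its groups did not overlap, but control replicate 3 came near knockdown replicate 1 (log2 fold change 1.13 with SE 0.31 and adjusted p = 0.0348). IFIT2, linked to cell death as well as to antiviral defence, had 11.9, 13.6 and 16.2 CPM in the controls and 16.1, 20.9 and 23.9 CPM in the knockdowns. Control replicate 3 was slightly above knockdown replicate 1, so the groups overlapped (log2 fold change 0.53 with SE 0.18 and adjusted p = 0.0211). IFIT1 and IFIT5 kept their call in all 14 alternatives. IFIT3 missed the threshold without control replicate 1, control replicate 2, knockdown replicate 2 or knockdown replicate 3 (adjusted p from 0.0534 to 0.124), and IFIT2 without control replicate 1, control replicate 2, knockdown replicate 2 or knockdown replicate 3 (adjusted p from 0.0643 to 0.0954). The 4 genes lie on the plus strand of chromosome 10 of GRCh38, from the start of IFIT2 at 89283694 to the end of IFIT5 at 89421001.

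The OAS enzymes, which make 2′-5′ oligoadenylates that switch on RNase L, and the MX proteins, GTPases that trap viral nucleocapsids, make up 6 of the genes. OAS1 and OASL rose and the other 4 were not called. OASL, a relative without the enzyme activity, had 50.6, 50.8 and 82.2 CPM in the controls and 81.7, 127 and 131 CPM in the knockdowns. Control replicate 3 exceeded knockdown replicate 1 narrowly (log2 fold change 0.88 with SE 0.26 and adjusted p = 0.0378). OAS1 had 378, 359.9 and 494 CPM in the controls and 492, 571 and 557 CPM in the knockdowns. The same 2 libraries overlapped (log2 fold change 0.39 with SE 0.11 and adjusted p = 0.00887). OAS3, the largest enzyme of the family, had 664, 639 and 645 CPM in the controls and 591, 788 and 614 CPM in the knockdowns. Only knockdown replicate 2 was above the controls, the other knockdowns lay below them, and the difference did not pass (log2 fold change 0.03 with SE 0.10 and adjusted p = 0.821). OAS2 had 36.5, 33.9 and 48.1 CPM in the controls and 33.1, 70.0 and 54.3 CPM in the knockdowns. Its lowest library of all was a knockdown, and its highest was one too (log2 fold change 0.40 with SE 0.28 and adjusted p = 0.289). OAS1, OAS3 and OAS2 are neighbours on the plus strand of chromosome 12, between 112906777 and 113011723.

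MX1, which acts against influenza and other viruses, had 152, 142 and 213 CPM in the controls and 185, 277 and 261 CPM in the knockdowns. Control replicate 3 lay above knockdown replicate 1 (log2 fold change 0.51 with SE 0.19 and adjusted p = 0.0644). MX2, which acts against retroviruses, had 4.45, 3.85 and 6.96 CPM in the controls and 5.94, 7.65 and 7.64 CPM in the knockdowns, with the same overlap (log2 fold change 0.46 with SE 0.25 and adjusted p = 0.147). MX1 and MX2 lie side by side on chromosome 21. OAS1 missed the threshold without control replicate 2 (adjusted p = 0.0649), and OASL without control replicate 1, control replicate 2, knockdown replicate 2 or knockdown replicate 3 (adjusted p from 0.0674 to 0.103). MX1 passed the threshold without control replicate 3 or knockdown replicate 1 (adjusted p from 0.00281 to 0.00611). MX2 passed it without control replicate 3 (adjusted p = 0.0266) and OAS2 without knockdown replicate 1 (adjusted p = 0.0046).

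**Figure D2:**
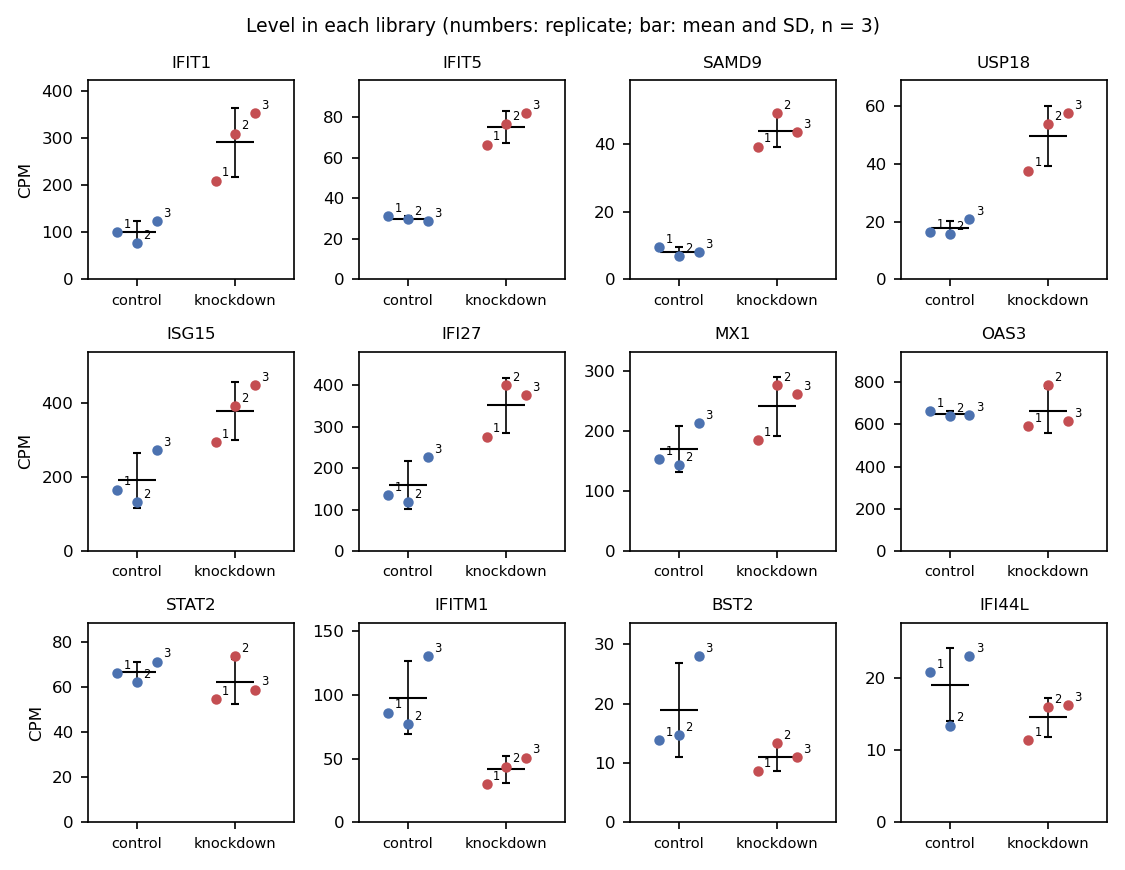
CPM (y axis, from 0) of 12 of the genes in each library, with the replicate number beside each point and the mean and SD of 3 libraries as bars. IFIT5 and SAMD9 show tight, separate groups, while ISG15, MX1 and BST2 have control replicate 3 well above the other controls.

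Of the 4 genes of the ISG15 system, USP18, HERC5 and HERC6 rose. ISG15, the ubiquitin-like protein that is attached to other proteins in the response, had 166, 132 and 273 CPM in the controls and 294, 392 and 449 CPM in the knockdowns. Every knockdown was above every control, with control replicate 3 close under knockdown replicate 1 (log2 fold change 0.99 with SE 0.34 and adjusted p = 0.0755). USP18, which removes ISG15 from proteins and damps signalling at the type I receptor, had 16.4, 15.8 and 20.8 CPM in the controls and 37.6, 53.7 and 57.5 CPM in the knockdowns. Its groups did not overlap (log2 fold change 1.48 with SE 0.16 and adjusted p = 1.65e-06). USP18 has a near-identical copy, USP41, so the split of reads between these loci is uncertain. HERC5, the main ligase that attaches ISG15 in human cells, had 29.0, 34.7 and 44.5 CPM in the controls and 38.1, 57.5 and 57.1 CPM in the knockdowns. Control replicate 3 lay above knockdown replicate 1 (log2 fold change 0.49 with SE 0.17 and adjusted p = 0.0341). HERC6, its neighbour on chromosome 4, had 18.1, 20.1 and 17.5 CPM in the controls and 32.5, 36.3 and 34.4 CPM in the knockdowns. Both groups were tight and apart (log2 fold change 0.89 with SE 0.13 and adjusted p = 3.64e-05). USP18 and HERC6 kept their call in all 14 alternatives. HERC5 missed the threshold without control replicate 1, control replicate 2, knockdown replicate 2 or knockdown replicate 3 (adjusted p from 0.0964 to 0.124), and ISG15 passed it without control replicate 3 (adjusted p = 0.00185).

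The membrane-associated and other antiviral effectors held both the greatest rise and 2 of the 3 falls. SAMD9, a large cytoplasmic protein that restricts poxviruses, had 9.57, 6.94 and 8.15 CPM in the controls and 39.4, 49.3 and 43.7 CPM in the knockdowns, a rise of 5.38-fold with no control near any knockdown (log2 fold change 2.43 with SE 0.16 and adjusted p = 3.88e-09). SAMD9L, its paralog, had 3.78, 3.66 and 5.03 CPM in the controls and 13.5, 15.4 and 13.9 CPM in the knockdowns. These groups were apart as well (log2 fold change 1.77 with SE 0.20 and adjusted p = 2.09e-06). The pair lies on the minus strand of chromosome 7, SAMD9 from 93099513 to 93118023 and SAMD9L from 93130055 to 93148369. CMPK2, a mitochondrial nucleotide kinase, had 5.45, 5.11 and 7.32 CPM in the controls and 9.13, 17.7 and 16.8 CPM in the knockdowns. All knockdowns were above all controls (log2 fold change 1.27 with SE 0.24 and adjusted p = 0.000487). ISG20, an exonuclease that degrades RNA, had 37.7, 33.4 and 44.7 CPM in the controls and 60.4, 68.6 and 77.8 CPM in the knockdowns. Its groups did not overlap (log2 fold change 0.83 with SE 0.13 and adjusted p = 6.57e-05). DDX60, a helicase, had 50.2, 42.4 and 50.2 CPM in the controls and 48.6, 62.9 and 55.3 CPM in the knockdowns. Knockdown replicate 1 lay within the controls (log2 fold change 0.22 with SE 0.12 and adjusted p = 0.156). RSAD2, or viperin, which makes a chain-terminating nucleotide, had 5, 6 and 10 reads in the controls and 9, 19 and 7 in the knockdowns, too few to test. RSAD2 and CMPK2 start 829 bases apart on opposite strands.

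The genes of this group that fell were IFITM1 and BST2, both proteins of the cell surface. IFITM1, which hinders fusion of viruses with the cell membrane, had 86.1, 76.9 and 130.2 CPM in the controls and 30.3, 43.7 and 50.8 CPM in the knockdowns. The highest knockdown was below the lowest control (log2 fold change -1.24 with SE 0.26 and adjusted p = 0.00731), and the call held in all 14 alternatives. BST2, or tetherin, which holds budding virions to the cell surface, had 13.9, 14.7 and 28.0 CPM in the controls and 8.67, 13.3 and 11.1 CPM in the knockdowns. The groups did not overlap, but by a small margin for controls 1 and 2 (log2 fold change -0.79 with SE 0.26 and adjusted p = 0.029). Without control replicate 3 the log2 fold change of BST2 was -0.39 and did not pass the threshold (edgeR adjusted p = 0.140). BST2 also missed it without knockdown replicate 1 (edgeR adjusted p = 0.117) or knockdown replicate 3 (0.0820). IFITM1 shares 32.5% of its annotated exon bases with IFITM2 on the same strand. IFITM2 and IFITM3, its neighbours on chromosome 11 and outside the 36 genes, fell too, from 137 ± 16.4 to 61.7 ± 8.95 CPM (mean ± SD, n = 3 per group; log2 fold change -1.15 with SE 0.12 and adjusted p = 6.65e-07) and from 97.2 ± 12.1 to 46.8 ± 10.3 CPM (mean ± SD, n = 3 per group; log2 fold change -1.06 with SE 0.14 and adjusted p = 2.28e-05).

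Of the 5 genes whose symbols stand for interferon-induced protein, IFI6, IFI27, IFI35 and IFI44 rose and IFI44L was not called. IFI6, which protects the endoplasmic reticulum from viral replication complexes, had 371, 317 and 555 CPM in the controls and 573, 793 and 756 CPM in the knockdowns. Control replicate 3 lay just below knockdown replicate 1 (log2 fold change 0.77 with SE 0.23 and adjusted p = 0.0373). IFI27, a mitochondrial protein and a common marker of an interferon response in blood, had 135, 118 and 226 CPM in the controls and 276, 401 and 376 CPM in the knockdowns. Again control replicate 3 stood above the other controls but below every knockdown (log2 fold change 1.13 with SE 0.30 and adjusted p = 0.0351). IFI35 had 122, 131 and 178 CPM in the controls and 217, 279 and 288 CPM in the knockdowns. Its knockdowns were all above its controls (log2 fold change 0.86 with SE 0.14 and adjusted p = 0.000276). IFI44 had 37.5, 31.2 and 43.2 CPM in the controls and 63.9, 92.1 and 96.1 CPM in the knockdowns, with groups apart (log2 fold change 1.17 with SE 0.15 and adjusted p = 1.67e-05). IFI44L, a paralog that starts 29874 bases away on the same strand of chromosome 1, had 20.8, 13.4 and 23.0 CPM in the controls and 11.4, 15.9 and 16.2 CPM in the knockdowns. Its groups overlapped, and its estimate was negative (log2 fold change -0.40 with SE 0.20 and adjusted p = 0.117). IFI6 missed the threshold without control replicate 1, knockdown replicate 2 or knockdown replicate 3 (adjusted p from 0.0702 to 0.121), and IFI27 without control replicate 1, knockdown replicate 2 or knockdown replicate 3 (adjusted p from 0.0728 to 0.119). IFI44L passed it as a fall without control replicate 2 (adjusted p = 0.0222).

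PARP9, PARP14 and XAF1 all rose. PARP9, which works with the ubiquitin ligase DTX3L, had 94.7, 90.2 and 102 CPM in the controls and 171, 220.2 and 216 CPM in the knockdowns. Its groups were far apart (log2 fold change 1.08 with SE 0.11 and adjusted p = 4.73e-07). PARP14, an ADP-ribosyltransferase, had 128, 118 and 115 CPM in the controls and 138, 170.4 and 148 CPM in the knockdowns. Its groups were apart by a smaller margin (log2 fold change 0.34 with SE 0.10 and adjusted p = 0.0108), and it missed the threshold without knockdown replicate 2 (adjusted p = 0.0937). XAF1, a partner of the apoptosis inhibitor XIAP, had 4.00, 2.99 and 5.31 CPM in the controls and 7.21, 10.2 and 11.1 CPM in the knockdowns. Its groups did not overlap (log2 fold change 1.19 with SE 0.25 and adjusted p = 0.000915). XAF1 shares 38.3% of its exon bases with PRAL on the opposite strand. PARP9 and PARP14 lie on the same chromosome as MYLK-AS1, their ends 1020965 and 854702 bases before its start. DTX3L, which starts 339 bases from PARP9 on the opposite strand, rose from 77.3 ± 6.40 to 116 ± 15.6 CPM (mean ± SD, n = 3 per group; log2 fold change 0.59 with SE 0.11 and adjusted p = 0.000407).

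Of the chemokines and the peptide transporter, only TAP1 could be tested. TAP1, a subunit of the pump that loads peptides for MHC class I, had 126, 124 and 149 CPM in the controls and 136, 181 and 173 CPM in the knockdowns. Control replicate 3 lay above knockdown replicate 1 (log2 fold change 0.30 with SE 0.11 and adjusted p = 0.0406). TAP1 missed the threshold without control replicate 1, control replicate 2, knockdown replicate 2 or knockdown replicate 3 (adjusted p from 0.109 to 0.194). CXCL10 and CXCL11, chemokines that draw T cells, were at the limit of detection. CXCL10 had 0, 0 and 1 reads in the controls and 0, 1 and 3 in the knockdowns. CXCL11 had 1 read in all, in knockdown replicate 1.

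The 33 tested genes shared a pattern between libraries of the same group. Control replicate 3 was the highest control for 26 of them and control replicate 2 the lowest for 24. Knockdown replicate 1 was the lowest knockdown for all 33. Over all 15391 genes tested, control replicate 3 was the highest control for 6010 and knockdown replicate 1 the lowest knockdown for 5311. As the median over the genes of the log2 CPM minus the control mean, controls 1 to 3 stood at -0.10, -0.20 and 0.28 and knockdowns 1 to 3 at 0.46, 0.84 and 0.88. Of the 3 genes that fell, IFITM1 and BST2 were highest in control replicate 3 among the controls, and IRF1 was highest in control replicate 1. The 36 genes together took 0.321%, 0.297% and 0.398% of the reads in the controls and 0.413%, 0.559% and 0.524% in the knockdowns.

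**Figure D3:**
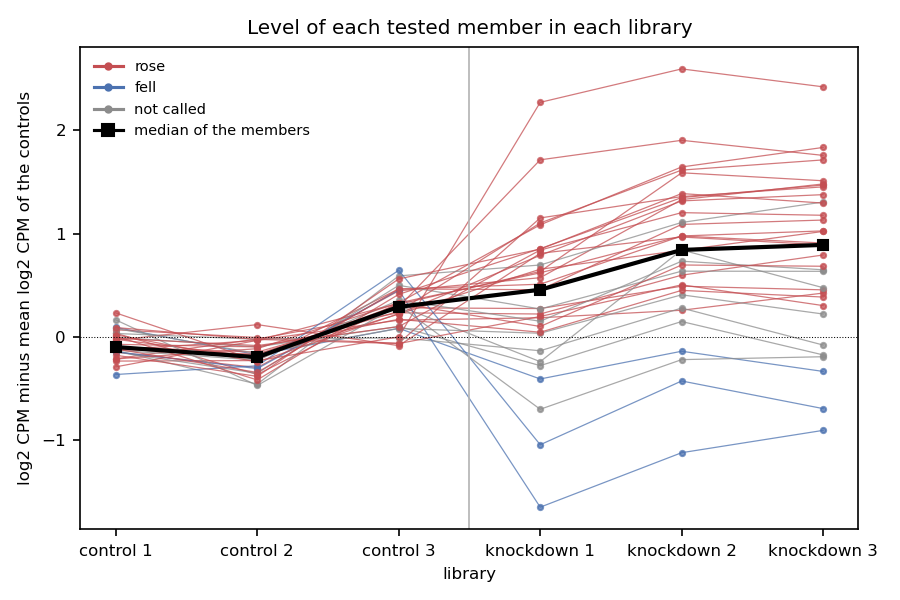
Log2 CPM of each tested gene minus its control mean (y axis) in each of the 6 libraries (x axis), coloured by the call, with the median of the 33 genes in black. The median is 0.28 in control replicate 3 and 0.46 in knockdown replicate 1, the closest pair across the groups.

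Control replicate 3 was higher than the mean of the other controls for 28 of the 33 genes, with a median difference of 0.42 in log2 CPM. The difference was at least 0.5 for 10 of the 33 (30.3%), against 5.88% of all genes tested. Set against control replicate 3 alone, the median of the knockdown mean was 0.40 higher, and against the other controls it was 0.84 higher. All knockdowns were above control replicate 3 for 18 genes and all below it for IRF1, BST2, IFITM1 and IFI44L, where the counts over all 15391 genes tested were 5774 above and 5853 below. IFIT5, OAS3, HERC6, SAMD9 and PARP14 were not higher in control replicate 3. Of these, IFIT5, HERC6 and SAMD9 kept their rise in every alternative. Over all genes tested the median of the same difference was -0.00078. What separates these libraries is not given in the labels and was not tested.

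**Figure D4:**
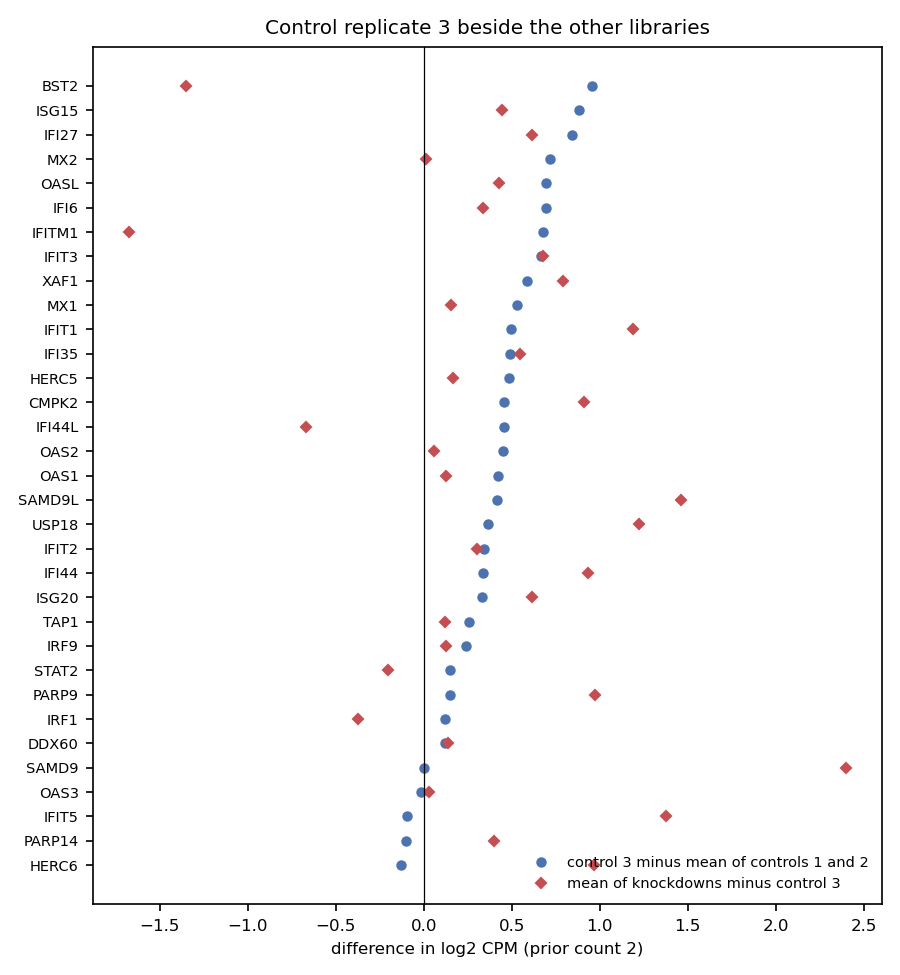
For each tested gene (y axis), the difference in log2 CPM between control replicate 3 and the mean of the other controls (blue circles) and between the mean of the knockdowns and control replicate 3 (red diamonds). SAMD9, HERC6 and IFIT5 have circles near 0 and diamonds far to the right, whereas ISG15 and BST2 have circles well above 0.

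With control replicate 3 left out, 25 genes rose and 1 fell, against 19.6% and 18.4% of all genes tested in that fit. With control replicate 3 and knockdown replicate 1 both left out, an alternative added after the values had been seen, 27 rose and 1 fell (20.2% and 18.8% of all genes), and the median log2 fold change was 0.88. Leaving out knockdown replicate 3, which stood apart over all genes, gave 14 rises and 1 fall (19.0% and 18.5% of all genes). The 12 genes that rose in the main comparison and in all 14 alternatives were IFIT1, IFIT5, USP18, HERC6, CMPK2, ISG20, SAMD9, SAMD9L, IFI35, IFI44, PARP9 and XAF1.

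Ratios of reads between paired genes within a library do not depend on library scaling. The 14 pairs were chosen after the values had been seen, so they are given without a test, and the groups overlapped for 4 of them. How often the ratio of other pairs of genes separates the groups was not computed. Among single genes tested, all knockdowns lay above all controls for 26.1% and below them for 26.1%. The ratio of IFI44 to IFI44L was 1.80, 2.33 and 1.88 in the controls and 5.60, 5.78 and 5.92 in the knockdowns. No control came near a knockdown. The ratio of PARP9 to PARP14 was 0.740, 0.763 and 0.892 in the controls and 1.24, 1.29 and 1.46 in the knockdowns, with no overlap. The ratio of IFIT5 to IFIT2 was 2.64, 2.19 and 1.77 in the controls and 4.14, 3.68 and 3.43 in the knockdowns, and that of IFIT1 to IFIT2 was 8.51, 5.65 and 7.68 in the controls and 13.1, 14.8 and 14.8 in the knockdowns. Both were higher in every knockdown than in every control. The ratio of SAMD9 to SAMD9L was 2.53, 1.89 and 1.62 in the controls and 2.91, 3.20 and 3.14 in the knockdowns, again without overlap. The ratio of IRF9 to STAT2 was 1.27, 1.44 and 1.44 in the controls and 1.91, 1.49 and 2.09 in the knockdowns, and the second knockdown came close to the controls. The ratio of USP18 to ISG15 was 0.0987, 0.120 and 0.0760 in the controls and 0.128, 0.137 and 0.128 in the knockdowns. The ratio of MX1 to MX2 was 34.2, 37.0 and 30.6 in the controls and 31.2, 36.2 and 34.2 in the knockdowns, so the groups overlapped throughout their range. The ratio of HERC6 to HERC5 was 0.625, 0.581 and 0.393 in the controls and 0.854, 0.630 and 0.603 in the knockdowns, and that of OAS1 to OAS3 was 0.569, 0.564 and 0.766 in the controls and 0.831, 0.725 and 0.907 in the knockdowns. The ratio of OAS2 to OAS3 was 0.0550, 0.0531 and 0.0747 in the controls and 0.0559, 0.0889 and 0.0884 in the knockdowns. The groups overlapped for these 3 pairs too. The ratio of OASL to OAS3 was 0.0762, 0.0795 and 0.127 in the controls and 0.138, 0.161 and 0.212 in the knockdowns, without overlap. The ratio of DTX3L to PARP9 was 0.890, 0.843 and 0.699 in the controls and 0.573, 0.576 and 0.569 in the knockdowns, and the ratio of PSMB9, an immunoproteasome subunit, to TAP1 was 0.304, 0.332 and 0.374 in the controls and 0.228, 0.200 and 0.191 in the knockdowns. Both of these were lower in every knockdown.

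**Figure D5:**
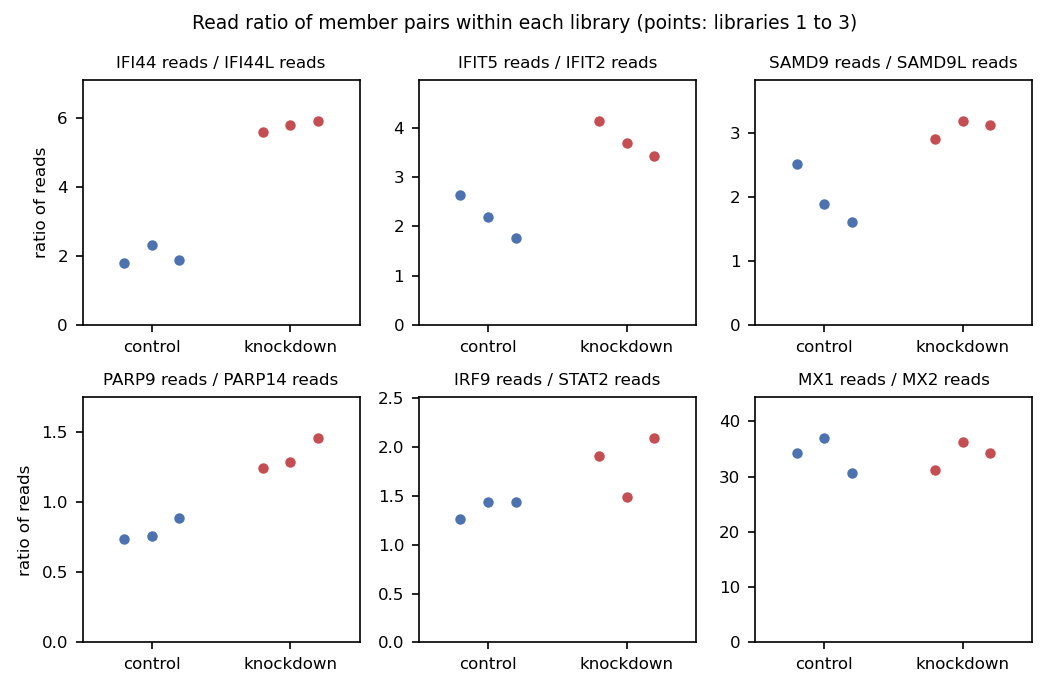
Ratio of reads of 6 pairs of genes within each library (y axis, from 0), with 3 controls in blue and 3 knockdowns in red. The ratio of IFI44 to IFI44L is between 1.80 and 2.33 in the controls and between 5.60 and 5.92 in the knockdowns, while that of MX1 to MX2 overlaps.

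Per kilobase of annotated exon (RPKM, CPM divided by the union of GENCODE 29 exons in kilobases), the levels of the genes spanned a wide range. IFI6 was highest, at 429, 366 and 641 RPKM in the controls and 663, 916 and 874 RPKM in the knockdowns. ISG15 followed, at 176, 140.5 and 291 RPKM in the controls and 313, 416 and 477 RPKM in the knockdowns. These 2 were above the other genes in every library. IFITM1 was next by its control mean, at 79.7, 71.2 and 121 RPKM in the controls and 28.1, 40.5 and 47.0 RPKM in the knockdowns, and its knockdown levels lay below those of OAS1, OAS3 and IFI35. SAMD9, the gene with the greatest fold change, had a low level, at 1.40, 1.01 and 1.19 RPKM in the controls and 5.74, 7.19 and 6.37 RPKM in the knockdowns. SAMD9L was lower still, at 0.530, 0.513 and 0.706 RPKM in the controls and 1.89, 2.16 and 1.95 RPKM in the knockdowns. MX2 had 0.341, 0.295 and 0.533 RPKM in the controls and 0.455, 0.587 and 0.586 RPKM in the knockdowns, the lowest of the tested genes. The union of exons includes those of rare transcripts, so levels of genes with long annotated isoforms are understated.

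Deviations from the group means over the 6 libraries were alike for most pairs of genes. Over 528 pairs the median Pearson correlation of these deviations was 0.783, from -0.408 to 0.998, and 407 pairs were above 0.5. The points share their libraries and depth, and removing the group means leaves few independent values, so this is a description. How many pairs of other genes reach such correlations was not computed, so the likeness cannot be called particular to these genes. The closest pair was IFI6 and IFI27, at 0.998. IFIT3 and USP18 were at 0.994, as were CMPK2 and PARP9. HERC6 was least like the others, with a median of -0.06, and its closest gene was PARP14 at 0.515.

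Among the other genes of the pathway, the ligands were barely detected. Of 22 interferon genes, 17 had 0 reads in all libraries and none could be tested. The highest count was 10 reads, for IFNB1, the gene of interferon beta, which had 2, 0 and 6 reads in the controls and 10, 0 and 5 in the knockdowns. Of 6 receptor genes, 1 rose and 1 fell. Beside this count and those of the lists below stand 21.3% of all genes tested that rose and 20.7% that fell. IFNGR1, a chain of the interferon gamma receptor, rose from 57.7 ± 4.29 to 103 ± 12.3 CPM (mean ± SD, n = 3 per group; log2 fold change 0.84 with SE 0.11 and adjusted p = 1.17e-05), and its partner chain IFNGR2 fell from 105 ± 5.11 to 66.1 ± 3.06 CPM (mean ± SD, n = 3 per group; log2 fold change -0.66 with SE 0.10 and adjusted p = 3.30e-05). IFNAR1 and IFNAR2, the type I receptor, were not called; IFNAR1 had 2.44 ± 0.224 CPM in the controls and 2.13 ± 0.195 CPM in the knockdowns (SD, n = 3 each).

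Of 7 tested kinases and transcription factors of the pathway none rose and 3 fell. STAT3, which serves cytokines such as interleukin 6, fell (log2 fold change -1.15 with SE 0.09 and adjusted p = 2.83e-08). The repressor IRF2 (log2 fold change -0.54 with SE 0.13 and adjusted p = 0.00245) and the receptor kinase TYK2 (log2 fold change -0.39 with SE 0.11 and adjusted p = 0.0106) fell as well. IRF7 was listed at 0 in all libraries, and whether its reads were lost in the counting is not known. Of 9 tested negative regulators PIAS3 rose and SOCS3 and PTPN6 fell (21.3% and 20.7% over all genes tested). SOCS3, an inhibitor of JAK kinases, went from 47.5 ± 5.35 to 21.5 ± 0.332 CPM (mean ± SD, n = 3 per group; log2 fold change -1.14 with SE 0.13 and adjusted p = 1.96e-06).

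Of 11 tested RNA and DNA sensors and adaptors, 7 rose and none fell. DDX58, the RNA sensor RIG-I, had 58.4, 49.4 and 61.5 CPM in the controls and 128, 163 and 161 CPM in the knockdowns (log2 fold change 1.42 with SE 0.12 and adjusted p = 5.24e-08). ZNFX1 (log2 fold change 1.24 with SE 0.09 and adjusted p = 1.35e-08), the antiviral zinc-finger protein ZC3HAV1 (log2 fold change 0.74 with SE 0.13 and adjusted p = 0.000182) and EIF2AK2, the kinase PKR (log2 fold change 0.48 with SE 0.11 and adjusted p = 0.00159), rose too. Of 3 tested genes for ISG15 conjugation only the ligase TRIM25 rose (log2 fold change 0.61 with SE 0.10 and adjusted p = 0.000135), while UBE2L6, the conjugating enzyme for ISG15, was not called (log2 fold change -0.08 with SE 0.11 and adjusted p = 0.594).

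Of 14 tested genes of antigen processing and presentation, 5 rose and 6 fell. HLA-C (log2 fold change 0.34 with SE 0.10 and adjusted p = 0.00879), HLA-F (log2 fold change 0.53 with SE 0.16 and adjusted p = 0.0146) and the peptide-trimming ERAP1 (log2 fold change 0.45 with SE 0.14 and adjusted p = 0.0164) were among those that rose. The immunoproteasome subunits PSMB8 (log2 fold change -0.37 with SE 0.12 and adjusted p = 0.0164) and PSMB9 (log2 fold change -0.43 with SE 0.14 and adjusted p = 0.0216), neighbours of TAP1 on chromosome 6, fell. PSMB10, another immunoproteasome subunit, went the other way and rose (log2 fold change 0.44 with SE 0.15 and edgeR adjusted p = 0.0237). TAP2, the other subunit of the transporter, was not called (log2 fold change 0.07 with SE 0.10 and adjusted p = 0.604). PSME1 (log2 fold change -0.26 with SE 0.09 and adjusted p = 0.0301) and PSME2 (log2 fold change -0.39 with SE 0.14 and adjusted p = 0.0364), proteasome activators near IRF9 on chromosome 14, fell.

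Of 46 tested genes among 53 further interferon-inducible genes, 23 rose and 6 fell, with a median log2 fold change of 0.38. SP110, a nuclear body protein (log2 fold change 1.30 with SE 0.14 and adjusted p = 1.57e-06), PARP12 (log2 fold change 1.01 with SE 0.11 and adjusted p = 1.91e-06) and APOL1, an apolipoprotein (log2 fold change 0.95 with SE 0.10 and adjusted p = 1.19e-06), rose, and IFITM2, which fell, had the lowest p of the list. DDX60L, the neighbour of DDX60, rose as well (log2 fold change 0.41 with SE 0.12 and adjusted p = 0.00896), and CXCL9, beside CXCL10 and CXCL11, had 0 reads in all libraries.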

How the data were processed

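RNA of PC9/GR cells was extracted with Trizol and made into Ion Proton libraries, per the labels' protocols. The deposited table gives raw counts of reads for each gene symbol. The submitters' processing notes name GRCh38. Not given in the sources used here are the aligner, counter, annotation and strandedness.

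The 3 control and 3 knockdown libraries were compared with edgeR 4.0.16 in R 4.3.3 (filterByExpr, TMM factors, robust quasi-likelihood fit and F test, two-sided). P-values were adjusted over 15391 genes by Benjamini-Hochberg, and a gene was called at an adjusted p under 0.05. CPM use the TMM-adjusted size of each library, and log2 CPM used a prior count of 2. Standard errors are approximations from the F statistic. The common biological coefficient of variation was 11.8%. The 14 alternatives began with RLE factors, no factors, no filter beyond 1 read and at least 5 CPM in 3 libraries. DESeq2 1.42.0, limma-voom (limma 3.58.1), the replicate number as a block and each library left out followed. The last, added after the values had been seen, left out both control replicate 3 and knockdown replicate 1. Calls were also counted at an adjusted p of 0.01, which is not among the 14. The scripts were tested on counts simulated from these genes. Called in the right direction were 21 of 68 changes of 0.5 in log2, 42 of 61 of 1 and 67 of 68 of 2. Of 146 calls, 16 were false.

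The 36 genes, their roles, the lists of other pathway genes and the markers were chosen with earlier results of these data known. All 36 are named. Full statistics are given for tested genes whose mean reached 5 CPM at an adjusted p of at most 0.05 and for those an alternative turned. From each other list up to 4 genes with the lowest p are named, and list genes within 100 kb of a called gene, and the rest that are named were chosen after their values were seen. The lists are interferon ligands, receptors, kinases and transcription factors, negative regulators, ISG15 conjugation, sensors, antigen processing, further interferon-inducible genes, and housekeeping genes, of which 3 rose and 3 fell of 10. Of 8 tested epithelial markers 1 rose and 5 fell. Of all genes tested 21.3% rose and 20.7% fell. All 204 list symbols were matched, 4 through an older symbol. Some genes of the lists are not reported here. Positions and exon lengths came from GENCODE 29 on GRCh38.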

Additional observations from a re-analysis of the deposited data

How the results depend on the processing

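Over 14 alternatives, 12 of the 22 genes that rose and 1 of the 3 that fell (IFITM1) kept their call in each. Leaving out 1 library at a time gave 13 to 25 genes that rose and 1 to 4 that fell (16.8% to 20.1% and 16.1% to 18.6% of all genes tested), with a median log2 fold change of 0.61 to 0.91. The low counts of rises came without control replicate 1 (14), control replicate 2 (15), knockdown replicate 2 (13) or knockdown replicate 3 (14), and the high ones without control replicate 3 (25) or knockdown replicate 1 (24). With control replicate 3 and knockdown replicate 1 both left out, 27 rose and 1 fell. At an adjusted p of 0.01, 13 rose and 1 fell (14.5% and 13.9% of all genes). RLE factors gave 22 rises (21.3% of all genes), no factors 21 (19.8%), no filter 23 of 36 (11.9%), the stricter filter 20 (24.1%), DESeq2 24 (19.8%) and limma-voom 23 (21.0%). The fit with the replicate block gave 24 rises and 2 falls (21.6% and 20.8% of all genes). Over all genes tested, deviations of same-numbered libraries from their group means had correlations of -0.0485, 0.0665 and 0.0537. That does not settle whether the replicate numbers pair the libraries, and the labels do not say. STAT2 turned from -0.09 to 0.0499 with both libraries left out and to 0.0016 without knockdown replicate 1 (leave-one-out range -0.2264 to 0.0016), and OAS3 from 0.03 to -0.10 without knockdown replicate 2 (leave-one-out range -0.10 to 0.1164), none past the threshold. IFI27 also missed the threshold with no filter, IRF9 with the stricter filter, TAP1 with no factors, the stricter filter and limma-voom, and IRF1 with no filter, DESeq2, limma-voom and the block. ISG15 and MX1 passed it with DESeq2, limma-voom and the block, MX1 and OAS2 with no filter, and with both libraries left out so did OAS2, MX1, MX2, ISG15 and DDX60, while IRF1 and BST2 missed it. The cause of these moves was not tested. With 3 against 3 libraries an exact permutation test of 1 gene cannot go below p = 0.1. Depth limits RSAD2, CXCL10 and CXCL11, for which no difference was detectable.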
